A study of Mus musculus with 12 samples.

Results

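The cluster histone genes were followed with every non-control array probe whose gene name begins with Hist1h, Hist2h, Hist3h or Hist4h, which gave 55 of 55681 probes, and 49 of the 34844 gene names on the array. They comprise 6 probes for linker histone H1, 15 for H2A, 12 for H2B, 8 for H3 and 14 for H4. By cluster, 40 probes belong to Hist1 genes on chromosome 13, 10 to Hist2 genes on chromosome 3, 3 to Hist3 genes on chromosome 11 and 2 to the Hist4 gene on chromosome 6. Total RNA from 12 mouse cell samples was hybridised to 12 one-colour Agilent arrays in 4 groups of 3. RAW264.7, a macrophage-like cell line from mouse, carried an shRNA against ABHD5 (knockdown) or the PLKO vector (control). CT-26, a line from a mouse colon carcinoma, had been primed by the ABHD5-KD RAW cells (knockdown-primed) or by RAW cells without the knockdown (control-primed). The labels do not say how the priming was done, how many shRNA sequences were used, or whether the 3 samples of a group were separate cultures, so p-values measure only the spread between these samples. ABHD5 is a coactivator of triacylglycerol lipolysis, and the stated aim was to follow its downstream pathways in macrophages and their effect on cancer cells.

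Core histones H2A, H2B, H3 and H4 form the protein spool of the nucleosome, and H1 binds the DNA that enters and leaves it. The clustered genes are made mostly in S phase, when new DNA must be packed, and their short mRNAs have no introns and no poly(A) tail. These mRNAs end instead in a conserved stem-loop bound by SLBP, and the U7 small nuclear ribonucleoprotein guides the cut that makes that end. When DNA synthesis stops, the mRNAs are degraded through the same stem-loop. The labelling protocol names Eberwine amplification without its primer, so how completely mRNAs without a poly(A) tail were copied is not known from the labels.

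The stem-loop probes are shown because they hold all or part of the stem-loop that ends replication-dependent histone mRNA. The histone 3′ stem-loop motif, searched on both strands, stood whole in 6 member probes and in 10 of all 55681 probes (0.018%). It is 16 letters long, and 2 more member probes held at least 10 of them at one end. The Hist1h2ae probe begins with the last 12 letters, so most of it lies past the stem-loop. It ends at base 601, where the gene is 558 bases long. Each line gives 30 bases of the probe, 5′ to 3′, with the stem-loop letters in capitals.
Hist1h3a: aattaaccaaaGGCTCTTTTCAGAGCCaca
Hist1h3g: cactttaaaGGCTCTTCTTAGAGCCaccca
Hist1h3i: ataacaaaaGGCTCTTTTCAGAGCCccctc
Hist1h4m: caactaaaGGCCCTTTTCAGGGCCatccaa
Hist2h2aa1: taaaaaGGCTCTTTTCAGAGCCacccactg
Hist2h2bb: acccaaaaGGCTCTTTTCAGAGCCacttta
Hist1h2ab: gaaagttaaccaaaacaaaGGCTCTTTTCA
Hist1h2ae: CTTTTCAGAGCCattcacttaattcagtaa
The whole probes lie, in mm9, at chr13:23853756-23853815 on the minus strand (Hist1h3a), chr13:23627719-23627778 on the plus strand (Hist1h3g), chr13:21874784-21874843 on the minus strand (Hist1h3i) and chr13:21903960-21904019 on the plus strand (Hist1h4m). Those of the Hist2 cluster lie at chr3:96049949-96050008 (Hist2h2aa1) and chr3:96074056-96074115 (Hist2h2bb), both on the plus strand. Those with part of the stem-loop lie at chr13:23843392-23843451 on the plus strand (Hist1h2ab) and chr13:23662489-23662548 on the minus strand (Hist1h2ae).

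The second set is shown because its probes cannot be read as separate genes. A run of 20 or more identical bases was shared by 16 member probes in 4 groups of 7, 4, 3 and 2 probes. The group of 7 covers the end of the H2A coding sequence (Hist1h2af, Hist1h2ag, Hist1h2ah, Hist1h2ak, Hist1h2an, Hist2h2aa2 and Hist2h2ac). Capitals mark a run of 17 bases that 6 of these probes share, and the longest run shared by a pair, Hist1h2ah and Hist2h2ac, was 42 of their 60 bases.
Hist1h2af: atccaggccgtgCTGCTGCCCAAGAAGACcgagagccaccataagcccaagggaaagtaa
Hist1h2ah: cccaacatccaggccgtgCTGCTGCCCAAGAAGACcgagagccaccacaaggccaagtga
Hist2h2aa2: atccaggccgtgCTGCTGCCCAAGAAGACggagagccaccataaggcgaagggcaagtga
Hist2h2ac: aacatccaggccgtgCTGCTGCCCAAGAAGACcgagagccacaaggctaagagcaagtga
These 4 probes lie, in mm9, at chr13:23626113-23626172 on the plus strand, chr13:22127035-22127094 on the minus strand, chr3:96049837-96049896 on the plus strand and chr3:96024378-96024437 on the minus strand.

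Another set is shown because these probes gave the largest changes outside the stem-loop, and they lie past the end of a short histone gene or in a gene model longer than 1000 bases. The first 30 bases of each are given, with no capitals because none was found to hold the stem-loop.
Hist1h2ac: taaaacttgacagtatgtgaacagctgaag
Hist1h2bg: agaatatgtttgcctcagtgtaaccaacgc
Hist4h4: acttaaatatcatttattattacacaaata
Hist3h2a: aaggttctggtttagatgctagtgtttcta
Hist1h2bq: aaggctctgtactaaagaacatttttatga
These lie, in mm9, at chr13:23773343-23773402 on the minus strand, chr13:23663823-23663882 on the plus strand, chr6:136751105-136751164 on the minus strand, chr11:58768954-58769013 on the plus strand and chr13:21929214-21929273 on the plus strand.

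A level is the log2 processed signal of a probe minus the 75th percentile of its array, so it orders samples for that probe and not different probes. A difference is the limma estimate between group means with its standard error, called at a Benjamini-Hochberg adjusted p under 0.05 over all probes tested. A probe was tested where every array of one group or of the other was flagged well above background by the scanner software. Between 56.5% and 77.3% of probes were well above background on an array, no spot was saturated, and the number of arrays limits the precision. The RAW264.7 arrays came from 2 slides, with control arrays 1 and 2 alone on one of them, and all 6 CT-26 arrays from another. Of 3 Abhd5 probes, 2 fell in knockdown RAW264.7 cells (-1.32 and -1.30 on the log2 scale, adjusted p = 0.00402 and 0.0157), and the other stood at -0.78 (adjusted p = 0.0759). With median centring 1 of the 3 passed as lower, and after quantile normalisation 2 did (4.88% and 6.96% of all probes). All 14 macrophage markers were well above background in both RAW264.7 groups. In CT-26 cells 8 of 16 epithelial markers were above background in each group. Cdh1, Vil1, Elf3, Cdx1 and Dsp were below it on all CT-26 arrays. In RAW264.7 cells 10 of the 16 were above it in the knockdown group and 5 in the control group. These counts did not separate the lines, but the log2 values of the summed marker levels did. They were 4.78 to 5.25 in CT-26 cells and 0.76 to 1.68 in RAW264.7 cells. Such a sum weighs the brightest markers most, so it does not show that the 16 markers as a set separate the lines.

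In RAW264.7 cells, more cluster histone probes were lower after ABHD5 knockdown than higher. The H2A gene Hist3h2a had the largest fall, and 3 of 5 tested H1 probes fell with it. Of 52 member probes tested, 10 fell and 2 rose, where 13.1% of all 37199 probes tested fell and 7.90% rose. The median member difference was -0.45, against -0.29 for all probes, a gap of -0.16 that became 0.0085 without the filter on dim probes. The shift of all probes depended on the scaling, at -0.05 with each array centred on its median and -0.07 after quantile normalisation. With median centring 5 members fell and 2 rose (4.88% and 9.70% of all probes), and with normexp background correction 21 fell and 1 rose (21.6% and 6.47%). Fewer cells in S phase and less histone mRNA in each cell cannot be told apart in such bulk samples.

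Hist3h2a, read with a probe past the short gene, stood at -0.68, -1.28 and -0.66 on the knockdown arrays, against 1.15, 0.53 and 1.30 on the control arrays. Every knockdown array was below every control array, and the difference was -1.87 ± 0.27 (SE; adjusted p = 0.00297). Hist1h2aa, a testis-specific H2A gene, stood at -2.55, -2.40 and -1.97 on the knockdown arrays, against -1.10, -1.004 and -0.56 on the control arrays. The groups did not overlap, and the difference was -1.42 ± 0.23 (adjusted p = 0.00572). Hist1h2ae stood at -2.42, -2.34 and -2.11 on the knockdown arrays, against -1.37, -1.22 and -0.93 on the control arrays, again without overlap (-1.12 ± 0.20, adjusted p = 0.0077). Among the other H2A probes, Hist1h2ab fell by 0.91 ± 0.18 and Hist1h2af fell by 0.76 ± 0.23 (adjusted p = 0.0126 and 0.0486).

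Linker histone genes also fell. Hist1h1e stood at 1.14, 1.44 and 1.02 on the knockdown arrays, against 2.21, 2.26 and 1.92 on the control arrays. Hist1h1b stood at 1.12, 1.73 and 1.38 on the knockdown arrays, against 2.08, 2.41 and 2.32 on the control arrays. Hist1h1c stood at 2.96, 2.43 and 2.41 on the knockdown arrays, against 3.21, 3.26 and 3.56 on the control arrays. The Hist1h1c probe lies past the short gene, at 1342 to 1402 where the gene is 725 bases long. No knockdown array reached a control array for any of the 3 genes, and the differences were -0.93 ± 0.20, -0.86 ± 0.22 and -0.74 ± 0.22 in that order (adjusted p = 0.0169, 0.029 and 0.0455). Hist1h1a did not pass, at 0.02 ± 0.22, nor did the testis gene Hist1h1t, at -0.40 ± 0.24.

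One H3 probe and one H2B probe fell, Hist1h3g by 0.83 ± 0.19 (adjusted p = 0.0212) and Hist1h2bm by 0.71 ± 0.20 (adjusted p = 0.0415). Hist1h3g stood at 0.06, -0.07 and -0.07 on the knockdown arrays, against 0.57, 1.01 and 0.82 on the control arrays. None of 13 H4 probes passed in limma, 0 higher and 1 lower at an unadjusted p under 0.05, and their median difference of -0.08 lay above that of all probes. Hist2h2aa1 rose, with 2.60, 2.81 and 3.06 on the knockdown arrays and 2.06, 2.31 and 2.11 on the control arrays (0.66 ± 0.20, adjusted p = 0.0467). Hist2h2ab also rose (0.99 ± 0.26, adjusted p = 0.0321), but it was well above background on only 1 of 3 control arrays and its difference was 0.12 with normexp. Just upstream of the Hist2h2aa1 probe in mm9 lies the Hist2h2aa2 probe, which went the other way. It stood at -0.68 ± 0.23 (limma adjusted p = 0.0636), with all knockdown arrays below all control arrays. The Hist2h2aa2 probe shares runs of 29 bases with other H2A probes, and the Hist2h2aa1 probe shares runs with other stem-loop probes. Either may bind other copies, so the rise of Hist2h2aa1 can be read for its probe only. Neither probe shows what the locus did. In 29 of 52 probes all knockdown arrays lay below all control arrays, a share to be read against 37.7% of all probes, and in 3 they lay above, against 13.0%.

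Within slides the knockdown arrays can be set against control array 3 alone, since control arrays 1 and 2 had a slide to themselves. On these 2 arrays 56.5% and 57.9% of probes were well above background, against 69.0% to 73.0% on the other RAW264.7 arrays. Control array 2 was the highest of its group in 35 of 52 members (67.3%, against 57.7% of all probes). The part of detection in the falls was not tested. With the slide as a block, 3 members fell and 0 rose in limma (0.957% and 3.21% of all probes), with 12 lower and 1 higher at an unadjusted p under 0.05, and all 12 called probes kept their direction. The 3 were Hist3h2a (-2.17, adjusted p = 0.0133), Hist1h2aa (-1.75, adjusted p = 0.0155) and Hist1h2ae (-1.36, adjusted p = 0.0274). The 7 falls that did not pass had blocked differences of similar size, from -0.96 for Hist1h1c to -0.53 for Hist1h2bm, in a fit with 1 control array. The rises of Hist2h2aa1 and Hist2h2ab stood at 0.71 and 0.60 with the block (adjusted p = 0.258 for Hist2h2aa1). The fit on that slide alone compares the same 4 arrays and gives the same differences, so it is no separate check. It called the same 3 falls (1.69% of all probes) and no rise (3.08%), with 19 lower and 1 higher at an unadjusted p under 0.05 in limma. Leaving out 1 array left 5, 5 and 4 falls without knockdown arrays 1, 2 and 3 (4.51%, 2.85% and 2.09% of all probes). It left 6, 9 and 10 falls without control arrays 1, 2 and 3 (4.63%, 10.3% and 18.4%). No rise was called without knockdown array 2, knockdown array 3 or control array 1, where limma gave 3, 2 and 2 at an unadjusted p under 0.05 (4.18%, 3.79% and 5.05% of all probes called). Without knockdown array 1 there were 2 rises (5.51%), and 1 was called without control array 2 or control array 3 (7.61% and 9.30%).

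**Figure D1:**
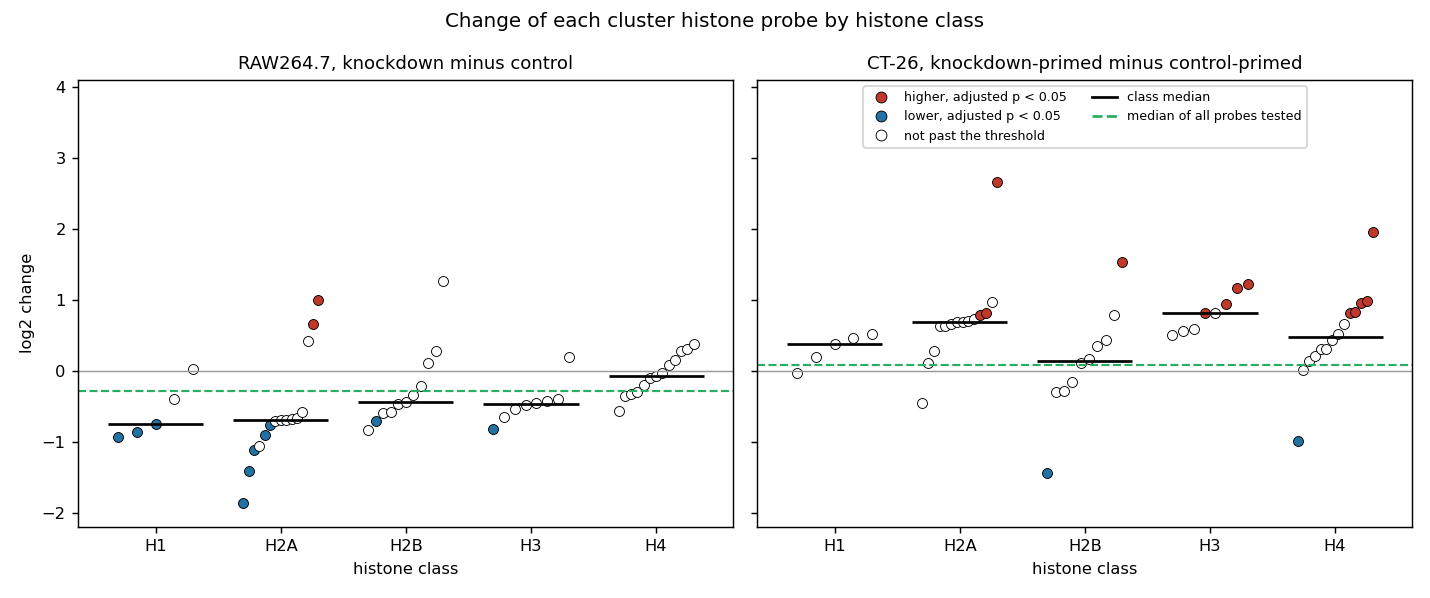
The log2 change of each tested cluster histone probe (points) is plotted by histone class for RAW264.7 cells, knockdown minus control (left), and CT-26 cells, knockdown-primed minus control-primed (right), with class medians as bars and the median of all probes as a dashed line. The H1 and H2A medians lie at -0.74 and -0.70 in RAW264.7 cells, and the H2A and H3 medians at 0.68 and 0.82 in CT-26 cells.

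Cluster histone probes were mostly higher in knockdown-primed CT-26 cells than in control-primed ones. Of 51 member probes tested, 13 rose and 2 fell, where 2.79% of all 37501 probes tested rose and 3.88% fell. The rises spanned H2A (3 of 14), H2B (1 of 10), H3 (4 of 8) and H4 (5 of 14), and none of 5 H1 probes passed in limma (3 higher and 0 lower at an unadjusted p under 0.05). The median member difference was 0.56, against 0.08 for all probes, and 44 of the 51 differences were above 0. In 32 probes all knockdown-primed arrays lay above all control-primed arrays, where 22.9% of all probes did, and in 3 they lay below, where 13.1% did. With normexp 15 rose and 0 fell (4.58% and 2.80% of all probes), and after quantile normalisation 12 rose and 0 fell (2.30% and 3.02%). The 2 falls were lost in limma there, and at an unadjusted p under 0.05 1 lower probe was left with normexp and 2 with quantile normalisation.

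In the H3 class all 8 differences were above 0, between 0.51 and 1.22. Hist1h3g stood at -0.15, 0.30 and 0.58 on the knockdown-primed arrays, against -0.78, -1.02 and -1.14 on the control-primed arrays. Hist1h3a stood at -2.53, -1.90 and -1.85 on the knockdown-primed arrays, against -3.16, -3.16 and -3.45 on the control-primed arrays. Neither pair of groups overlapped, and the differences were 1.22 ± 0.21 and 1.17 ± 0.21 (adjusted p = 0.0197 and 0.0228). Hist2h3c2-ps, which carries a pseudogene name, stood at -3.31, -3.15 and -3.14 on the knockdown-primed arrays, against -4.05, -4.08 and -4.29 on the control-primed arrays (0.94 ± 0.16, adjusted p = 0.0172). The Hist2h3c2-ps probe lies past the short gene. Hist1h3f rose by 0.82 ± 0.19 (adjusted p = 0.0417), and Hist1h3i missed the threshold at 0.82 ± 0.21 (adjusted p = 0.0545). The Hist1h3f probe shares a run of 36 bases with that of Hist1h3c, the group of 2, which stood at 0.51 and did not pass.

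Of the H4 probes, the 2 for Hist4h4 both rose. The probe past the gene stood at -4.85, -3.65 and -3.71 on the knockdown-primed arrays, against -5.91, -6.00 and -6.18 on the control-primed arrays (1.96 ± 0.30, adjusted p = 0.0148). The probe within the gene stood at -0.21, -0.05 and 0.45 on the knockdown-primed arrays, against -0.73, -0.94 and -1.02 on the control-primed arrays (0.96 ± 0.20, adjusted p = 0.0325). Both sets of 3 were apart, and the confidence intervals of the differences, 1.27 to 2.64 and 0.50 to 1.42, overlapped. Hist1h4d stood at 1.89, 2.01 and 2.36 on the knockdown-primed arrays, against 1.33, 0.997 and 0.97 on the control-primed arrays (0.99 ± 0.19, adjusted p = 0.0245). Hist1h4c rose by 0.82 ± 0.18 (adjusted p = 0.0362). The probes for Hist1h4k disagreed, since one rose by 0.82 ± 0.18 (adjusted p = 0.0352) and the other was 0.00 ± 0.26 (adjusted p = 0.995). The rising Hist1h4k probe shares a run of 21 bases with the Hist1h4d probe and of 26 with the Hist1h4j probe, the group of 3. The rises of Hist1h4k and Hist1h4d are thus not separate observations.

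Among H2A and H2B genes the largest rises came from probes past the short gene. Hist1h2ac stood at -2.65, -0.91 and -1.54 on the knockdown-primed arrays, against -3.82, -4.54 and -4.71 on the control-primed arrays. The groups were far apart, and the difference of 2.66 ± 0.41 (adjusted p = 0.0148) is 6.31-fold. Hist1h2bg stood at -2.27, -0.81 and -1.85 on the knockdown-primed arrays, against -2.95, -3.04 and -3.52 on the control-primed arrays (1.53 ± 0.35, adjusted p = 0.0383). Hist2h2aa1 stood at 2.03, 2.40 and 2.55 on the knockdown-primed arrays, against 1.71, 1.42 and 1.40 on the control-primed arrays (0.82 ± 0.19, adjusted p = 0.0412). Hist1h2ab stood at -1.07, -0.96 and -0.57 on the knockdown-primed arrays, against -1.69, -1.54 and -1.74 on the control-primed arrays (0.79 ± 0.18, adjusted p = 0.0387). No knockdown-primed array fell among the control-primed arrays for any of these 4 probes.

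The 2 falls came from dim probes. Hist1h2bq was well above background on none of the knockdown-primed arrays (-6.43, -6.43 and -6.65) and on all 3 control-primed arrays (-5.73, -4.23 and -5.22). It was tested only through the control-primed group, and its measured difference of -1.45 ± 0.33 (limma adjusted p = 0.0396) rests on signal not above background. A bound at the detection limit put the means 1.36-fold apart. Control-primed array 1 itself lay below the detection limits of knockdown-primed arrays 2 and 3 (-5.49 and -5.00). That bound sets the control-primed mean against a level taken on each knockdown-primed array, either its lowest signal well above background or the signal of Hist1h2bq where that was higher. With normexp the Hist1h2bq difference was -0.083 (adjusted p = 0.782), smaller than that bound, so the bound does not hold under that correction. Hist1h4h stood at -4.80, -5.21 and -5.46 on the knockdown-primed arrays, of which 2 were well above background, against -4.58, -3.93 and -3.97 on the control-primed arrays (-0.997 ± 0.24, adjusted p = 0.0444), and its difference was -0.38 with normexp (adjusted p = 0.143).

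The stem-loop probes as a set lay on the same side in CT-26 cells. All 8 differences were above 0, from 0.65 to 1.22 with a median of 0.82. For all 8 the knockdown-primed arrays lay above the control-primed arrays, where 22.9% of all probes did so. In limma 4 of the 8 rose (Hist1h3g, Hist1h3a, Hist2h2aa1 and Hist1h2ab), where 2.79% of all probes did. Hist1h2ae missed the threshold at 0.97 ± 0.28 (adjusted p = 0.0666). The stem-loop probes of Hist1h3a, Hist1h3i, Hist2h2aa1 and Hist2h2bb are the group of 4 with shared runs of 20 to 22 bases, so the 8 are not separate observations. Of 31 probes within the short genes, 5 rose and 1 fell over a range of -0.997 to 0.99. Of 12 past the short genes, 4 rose and 1 fell over a wider range of -1.45 to 2.66. Both counts are to be read against 2.79% of all probes higher and 3.88% lower. In RAW264.7 cells the stem-loop probes were split, with 3 falls and 1 rise of 8, where 13.1% and 7.90% of all probes fell and rose. The falls include Hist1h2ae, whose probe lies mostly past the stem-loop.

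**Figure D2:**
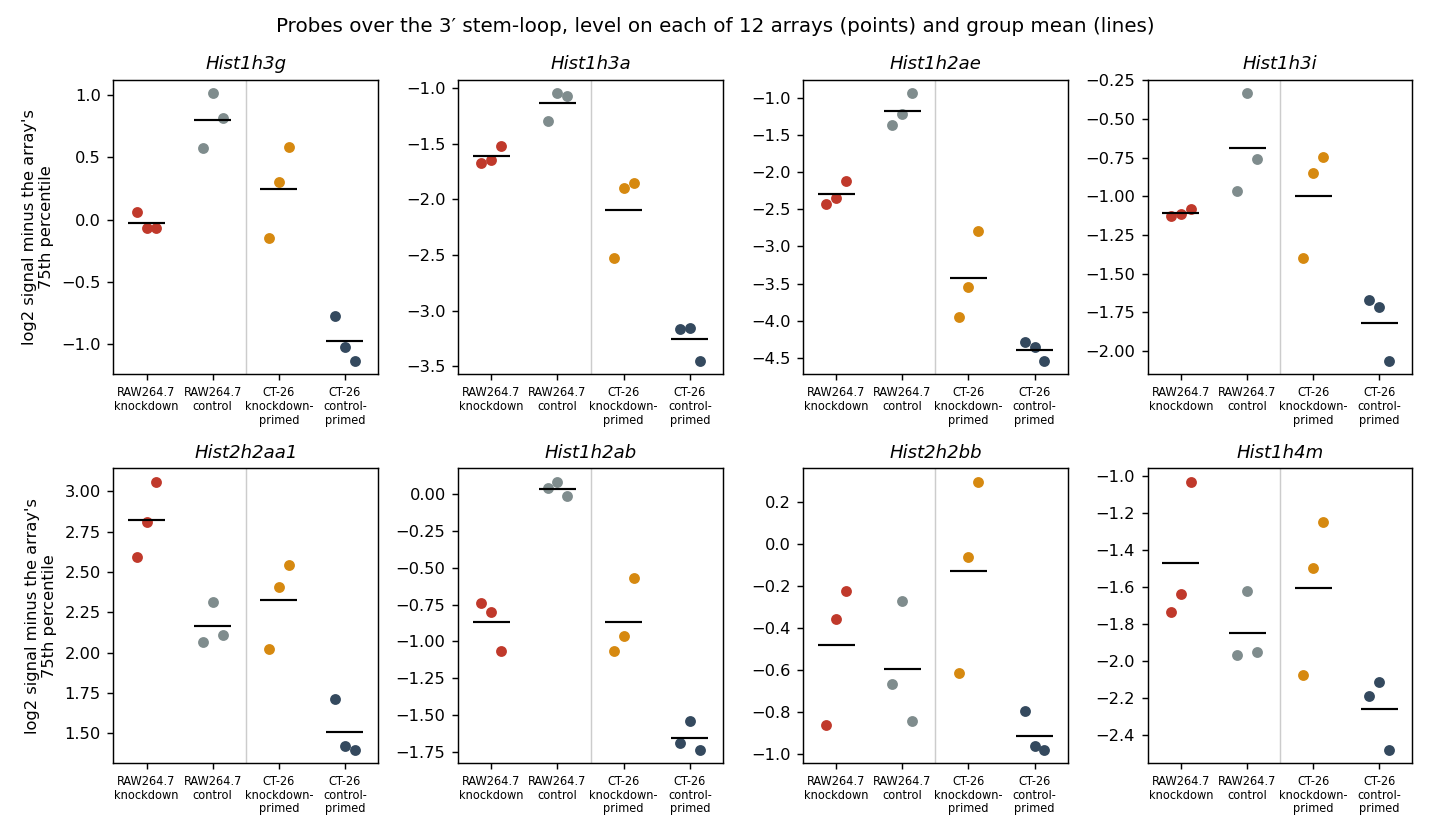
The level (log2 signal minus the 75th percentile of the array) of each of 8 stem-loop probes is plotted on all 12 arrays (points) with group means (lines), with separate vertical scales for each gene. In every panel the 3 knockdown-primed CT-26 arrays sit above the 3 control-primed arrays, while the RAW264.7 groups lie apart with knockdown lower for Hist1h3g, Hist1h3a, Hist1h2ae, Hist1h3i and Hist1h2ab.

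The 7 H2A probes with a shared coding run gave like differences, and they include the 6 member probes with the brightest spots, an order of spots and not of genes. Hist1h2ah stood at 6.46, 6.84 and 7.32 on the knockdown-primed arrays and at 6.39, 6.08 and 6.11 on the control-primed arrays. In RAW264.7 cells it stood at 5.94, 6.18 and 6.004 on the knockdown arrays and at 6.63, 8.003 and 6.69 on the control arrays. Both pairs of groups were apart, in opposite directions. The 7 differences ran from 0.63 to 0.73 in CT-26 cells, where 0 passed in limma and each was above 0, and from -1.07 to -0.66 in RAW264.7 cells, where Hist1h2af passed. After quantile normalisation they ran from 0.29 to 0.39 in CT-26 cells and from -0.46 to -0.20 in RAW264.7 cells. Since near-identical copies can bind the same labelled molecules, these are not 7 independent observations. A second probe for Hist1h2ak, without the run, stood at 0.11 ± 0.16 in CT-26 cells and -0.58 ± 0.19 in RAW264.7 cells.

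The knockdown-primed arrays differed among themselves. The median member level stood 0.30, 0.56 and 0.90 above the control-primed mean on knockdown-primed arrays 1, 2 and 3, where all probes stood 0.03, 0.08 and 0.11 above it. Array 3 was the highest of its group in 37 of 51 members (72.5%, against 41.7% of all probes) and array 1 the lowest in 36 (70.6%, against 42.3%). The share of probes well above background was 67.0%, 63.8% and 59.3% on these arrays, against 73.0%, 77.3% and 68.3% on the control-primed arrays. Detection was thus lowest on the array with the highest histone levels, its part in the result was not tested, and the fit over probes well above background on all 6 arrays gave 17 rises of 49 (5.14% of all probes). The macrophage markers had a log2 of the summed levels of 5.85 to 6.24 in knockdown-primed cells and 5.80 to 5.94 in control-primed cells. In those groups 10 and 11 of 14 were above background on every array, while Emr1 and Sfpi1 were below it on all 6 arrays. Tyrobp and Laptm5 were below it on all knockdown-primed arrays. A share of macrophage RNA in these samples was not tested.

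The calls in CT-26 cells rested on few arrays. Leaving out knockdown-primed array 1 gave 22 rises (4.43% of all probes), and leaving out knockdown-primed array 2 gave 7 (0.858%). Leaving out knockdown-primed array 3, control-primed array 2 or control-primed array 3 gave 0 rises in limma (0.316%, 0.163% and 0.0472% of all probes), with 25, 28 and 22 members higher at an unadjusted p under 0.05. Without control-primed array 1 there were 9 (1.69%). Of the falls, 2 were called without control-primed array 1 (3.26%) and 1 without knockdown-primed array 1 (4.98%). None was called in limma without knockdown-primed arrays 2 or 3 (2.76% and 0.953%) or control-primed arrays 2 or 3 (0.629% and 0.0472%), where 2 or 3 members were lower at an unadjusted p under 0.05. All 15 called probes kept their direction in each of these fits, and the gap between the member median and that of all probes stayed between 0.38 and 0.60.

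**Figure D3:**
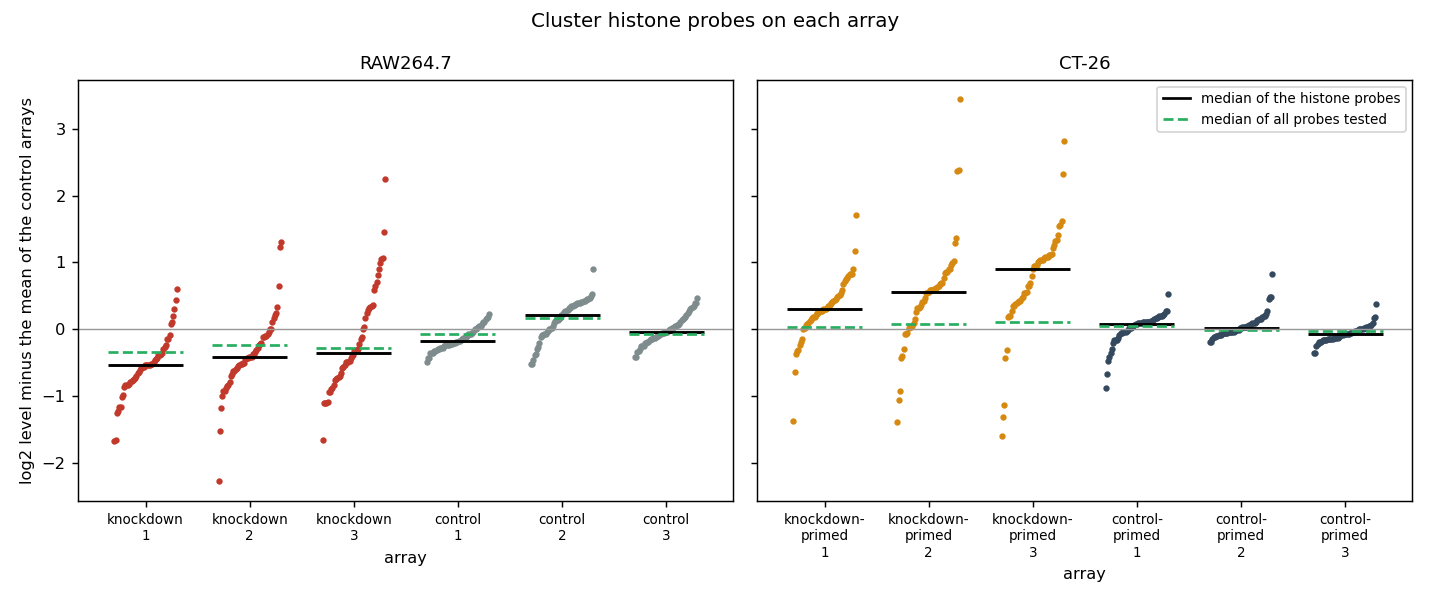
For each array, the level of every tested cluster histone probe minus its mean on the control arrays of that cell line is plotted in log2 units (points, in rising order), with the histone median (solid bar) and the median of all probes tested (dashed bar), for RAW264.7 cells (left) and CT-26 cells (right). The histone medians are 0.30, 0.56 and 0.90 on the knockdown-primed CT-26 arrays, and -0.54, -0.42 and -0.36 on the knockdown RAW264.7 arrays.

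The change in CT-26 cells differed from that in RAW264.7 cells for most members when the difference itself was tested. Of 53 probes tested, the CT-26 change was above the RAW264.7 change in 28 and below it in 3, where 20.0% and 7.35% of all 40756 probes were. The median difference was 0.92, against 0.35 for all probes. Among the 50 probes tested in both comparisons, 33 had a negative change in RAW264.7 cells and a positive one in CT-26 cells, 10 were positive in both, 5 negative in both and 2 the other way. Hist1h3g differed by 2.05 (adjusted p = 0.000955) and Hist1h2ab by 1.70 (adjusted p = 0.000999), the only probes that fell in RAW264.7 cells and rose in CT-26 cells past the threshold each time. The Hist2h2aa1 probe rose in both, and its changes differed by 0.16. Those of the neighbouring Hist2h2aa2 probe differed by 1.41. With the slide as a block 6 were above and 1 below (3.78% and 3.82% of all probes), namely Hist1h2ab, Hist1h2ae, Hist1h3a, Hist1h3g, Hist2h3c1 and Hist3h2a above and Hist1h4h below, and the RAW264.7 side of that fit again rests on control array 3. The count above was 17 without knockdown RAW264.7 array 1, knockdown-primed array 3 or control-primed array 3 (14.1%, 11.4% and 8.82% of all probes), and 19 to 30 without any other array. The count below was 1 without knockdown RAW264.7 array 3 (4.90%), and 2 or 3 without any other array.

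**Figure D4:**
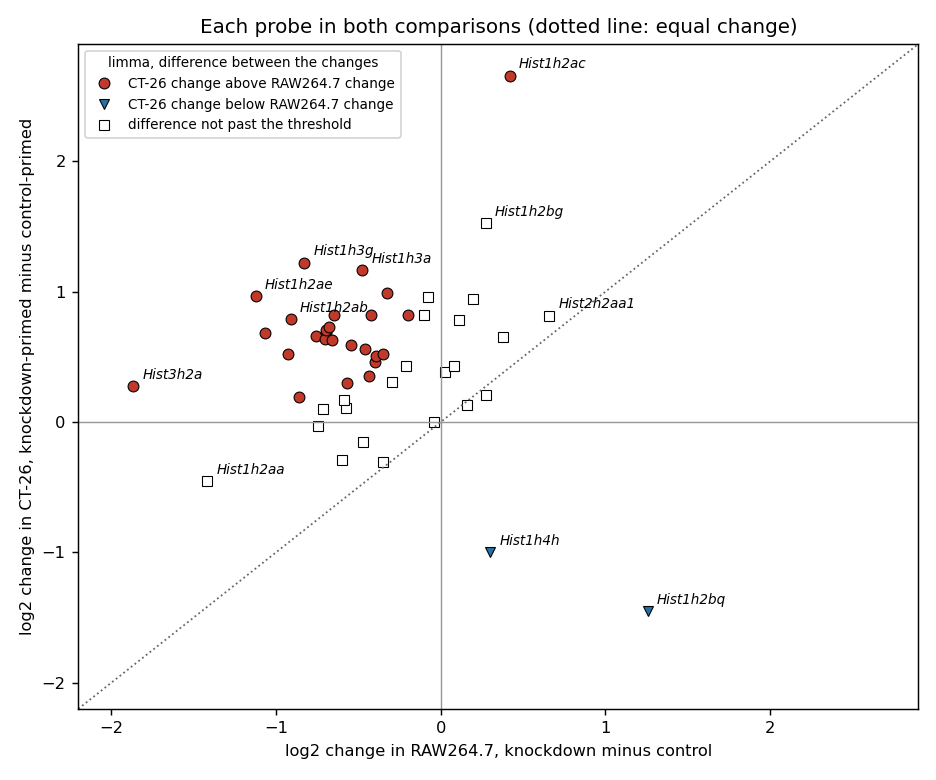
Each of the 50 cluster histone probes tested in both comparisons is placed by its log2 change in RAW264.7 cells, knockdown minus control (horizontal axis), and in CT-26 cells, knockdown-primed minus control-primed (vertical axis), with filled symbols where limma found the changes to differ. Of the points, 33 lie below 0 on the horizontal axis and above 0 on the vertical axis, and Hist1h2bq and Hist1h4h lie below 0 in CT-26 cells only.

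Cell line levels overlapped for most members. All CT-26 arrays lay on a slide of their own, so cell line and slide cannot be told apart here. All 6 CT-26 arrays lay above all 6 RAW264.7 arrays for 1 of 53 probes, Hist1h2be, and below them for 10, where 21.2% and 21.1% of all probes did. Among the 10, Hist1h2ae ranged from -4.54 to -2.78 with a median of -4.12 in CT-26 cells, against -2.42 to -0.93 with a median of -1.74 in RAW264.7 cells. Hist2h3c2-ps ranged from -4.29 to -3.14 in CT-26 cells, against -1.53 to -0.73 in RAW264.7 cells. Hist1h1d and Hist3h2ba were tested in no comparison, the Hist4h4 probe past the gene was not tested in RAW264.7 cells, and Hist1h2bp and Hist2h2ab were not tested in CT-26 cells.

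Some H2A and H2B genes lie head to head and share the DNA between their start sites. RefSeq starts on GRCm38.p6 placed 3 such pairs under 1000 bases apart, among them Hist1h2ae and Hist1h2bg with 180 bases between starts. That stretch, chr13:23571221-23571399 on the plus strand, is shown because it serves a pair of probes that both lay higher in knockdown-primed cells, with capitals for the CCAAT letters on either strand, the octamer ATTTGCAT and TATAAA.
Hist1h2ae to Hist1h2bg: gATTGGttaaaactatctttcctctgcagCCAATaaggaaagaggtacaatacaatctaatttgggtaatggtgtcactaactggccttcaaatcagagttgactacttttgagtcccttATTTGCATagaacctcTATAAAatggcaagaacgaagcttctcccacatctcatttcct
In CT-26 cells Hist1h2bg rose by 1.53 and Hist1h2ae stood at 0.97, and in RAW264.7 cells Hist1h2ae fell by 1.12 while Hist1h2bg stood at 0.27 ± 0.34. In the testis pair, Hist1h2ba and Hist1h2aa stood at -0.15 and -0.45 in CT-26 cells. In RAW264.7 cells Hist1h2ba stood at -0.47, while Hist1h2aa fell.

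Over the 44 RefSeq promoters of 43 member genes, each from 250 bases before the start to 50 after it, ATTTGCAT on either strand stood in 13 (29.5%), against 1.74% of all 32851 promoters. By class it stood in 7 of 14 H2A promoters and 6 of 10 H2B promoters, and in none of those of H1, H3 or H4. TATAAA stood in 26 (59.1%, against 13.6%) and CCAAT in 38 (86.4%, against 37.4%), with only 2 of 8 H4 promoters holding CCAAT. A promoter was counted once for each motif it held, also where motifs overlapped.

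Genes that work beside the cluster histones were read with 1 probe a gene. In CT-26 cells 13 of 38 S phase genes rose and none fell, where 2.82% and 2.96% of all genes did, and their median was 0.53 against 0.11 for all genes (27 higher and 0 lower at an unadjusted p under 0.05 in limma). Cdc6, which loads the replicative helicase, averaged 0.44 ± 0.12 in knockdown-primed cells and -0.91 ± 0.13 in control-primed cells (SD, n = 3 each), a difference of 1.35 ± 0.16 (SE; limma adjusted p = 0.00754). Rpa2, a subunit of the single-strand binding complex, rose by 1.32 ± 0.16 (adjusted p = 0.00789). Ccne1, cyclin E1, rose by 1.17 ± 0.19 (adjusted p = 0.0167), and the helicase subunit gene Mcm5 rose by 0.96 ± 0.16 (adjusted p = 0.0187). The S phase count in either direction was 15, 7 and 3 without knockdown-primed arrays 1, 2 and 3, and 7, 2 and 0 without control-primed arrays 1, 2 and 3. Of all probes, 4.43%, 0.858%, 0.316%, 1.69%, 0.163% and 0.0472% rose in those fits, in that order. The shares that fell were 4.98%, 2.76%, 0.953%, 3.26%, 0.629% and 0.0472%.

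In RAW264.7 cells 1 of the 38 S phase genes rose and 1 fell, where 7.59% and 13.2% of all genes did, namely Ccne2 (1.85 ± 0.37, adjusted p = 0.0136) and Mcm5 (-0.63 ± 0.17, adjusted p = 0.0372). At an unadjusted p under 0.05 in limma 14 of the 38 were lower and 1 higher. Their median was -0.34, against -0.30 for all genes. Of 29 genes of histone mRNA processing and transcription, 8 fell and none rose, with a median of -0.45 against -0.30 for all genes (15 lower and 0 higher at an unadjusted p under 0.05 in limma). They include the cleavage factors Cpsf3 (-1.03 ± 0.19, adjusted p = 0.00915), Cpsf2 (-1.18 ± 0.27, adjusted p = 0.0203) and Cpsf1 (-0.90 ± 0.21, adjusted p = 0.0228) and the scaffold Sympk (-0.82 ± 0.19, adjusted p = 0.0227). With the slide as a block, and so with control array 3 alone, none of the 29 passed, and without knockdown arrays 1, 2 and 3 or control arrays 1, 2 and 3 the count called in either direction was 2, 1, 0, 3, 6 and 12 in that order. In the fits without 1 array 4.51%, 2.85%, 2.09%, 4.63%, 10.3% and 18.4% of all probes fell, in the same order. The shares that rose were 5.51%, 4.18%, 3.79%, 5.05%, 7.61% and 9.30%. In CT-26 cells 1 of these 29 genes rose and 1 fell, Slbp itself (0.69 ± 0.17, adjusted p = 0.0467), which is also counted among the S phase genes, and the octamer-binding factor gene Pou2f1 (-0.79 ± 0.19, adjusted p = 0.0447). Slbp stood at 0.27 ± 0.20 in RAW264.7 cells (adjusted p = 0.307).

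Histone variants encoded outside the clusters formed a further list, and its counts and those of the next lists are to be read against the same shares of all genes, 7.59% higher and 13.2% lower in RAW264.7 cells and 2.82% higher and 2.96% lower in CT-26 cells. In RAW264.7 cells 3 of 16 fell, H2afx (-1.93 ± 0.25, adjusted p = 0.00174), the replacement linker histone H1f0 (-1.74 ± 0.27, adjusted p = 0.00388) and H2afy (-0.87 ± 0.19, adjusted p = 0.0179). H2afx and H1f0 also passed with the slide as a block. In CT-26 cells 2 of 15 rose, H2afx (0.77 ± 0.15, adjusted p = 0.028) and H2afj (0.74 ± 0.18, adjusted p = 0.0469). Of 26 histone chaperones, 2 fell and none rose in RAW264.7 cells, Atrx (-0.85 ± 0.24, adjusted p = 0.0399) and Nap1l1 (-0.63 ± 0.18, adjusted p = 0.0443), and 1 rose in CT-26 cells, 2610039C10Rik (0.88 ± 0.20, adjusted p = 0.0369). Of 18 genes of withdrawal from the cell cycle, Gadd45a (2.22 ± 0.18, adjusted p = 0.000158) and Ccng2 (0.95 ± 0.22, adjusted p = 0.0217) rose and Rb1 (-0.69 ± 0.21, adjusted p = 0.0479) fell in RAW264.7 cells. In CT-26 cells Cdkn2c rose (0.67 ± 0.16, adjusted p = 0.0444), and Rbl2 (-1.18 ± 0.17, adjusted p = 0.013) and Mxd1 (-1.17 ± 0.18, adjusted p = 0.0148) fell.

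**Figure D5:**
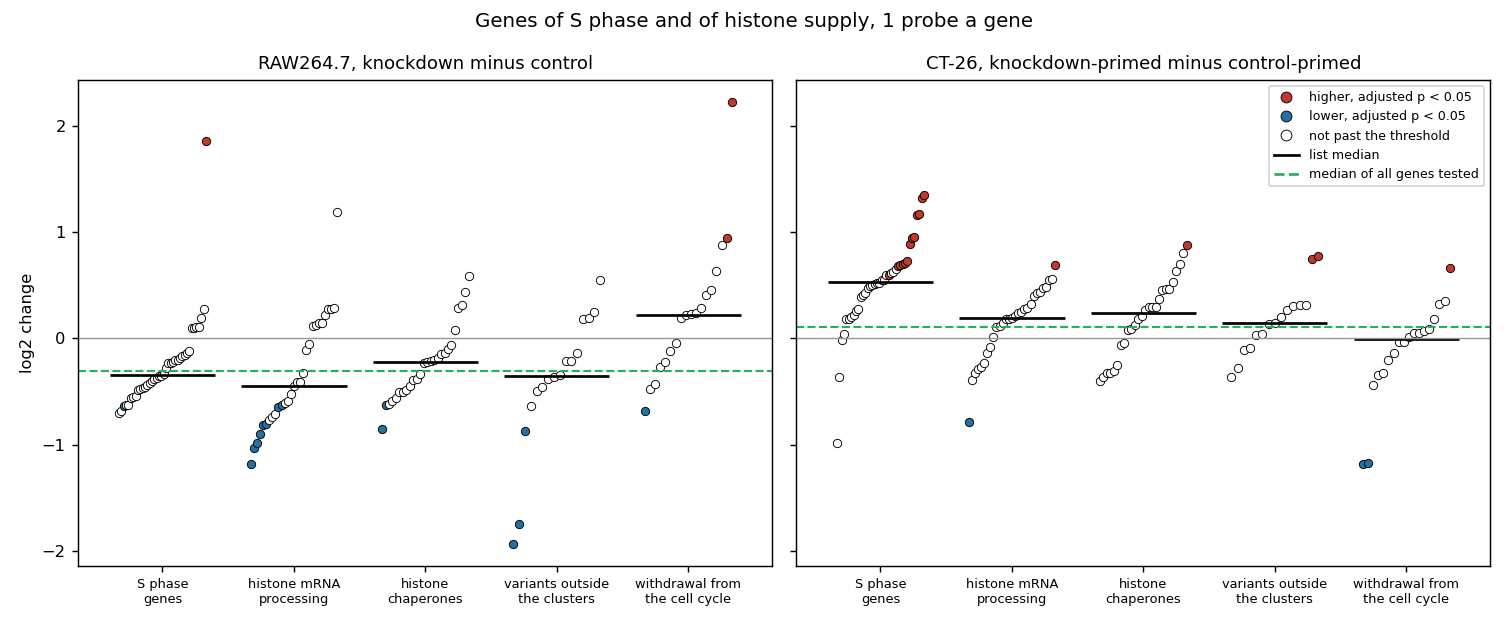
The log2 change of each tested gene in 5 lists is plotted with 1 probe a gene for RAW264.7 cells, knockdown minus control (left), and CT-26 cells, knockdown-primed minus control-primed (right), with list medians as bars and the median of all genes as a dashed line. The S phase median is -0.34 in RAW264.7 cells and 0.53 in CT-26 cells, where 13 of its 38 genes rose.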

How the data were processed

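Total RNA labelled with Cy3 was measured on 12 one-colour Agilent arrays, 1 for each sample, grouped by the labels. The deposited scanner files hold spot intensity values that the authors read with Agilent Feature Extraction 10.7.3.1, per the submitters' processing notes and the file headers, which state background correction and detrending within each array and probe coordinates of mm9. The deposited series value table holds log2 values for the RAW264.7 arrays and linear intensity for the CT-26 arrays, of which 5 of 6 columns equal another replicate of the same group, so array numbers follow the scanner files. From the scanner files, control spots and outlier flags were left out, spots of one probe were averaged, and log2 processed signal minus the array's 75th percentile was tested per probe with limma 3.58.1 in R 4.3.3 (two-sided, empirical Bayes), on the 6 arrays of each cell line, and on all 12 for the difference between the changes. The arrays lay on 3 slides. Benjamini-Hochberg adjustment ran over all probes tested, and pandas 2.3.3 under Python 3.11.15 made the counts. The test was checked on simulated data. Alternatives were normexp (offset 50), median centring, quantile normalisation, no filter or a stricter filter on dim probes, the brightest probe of each gene, all 4 groups in 1 fit, the value table, the slide as a block, a single slide, the replicate number as a block, and each array left out.

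The members and gene lists were chosen with earlier results of these data known. Named members were, per comparison and histone class, the 3 largest rises and 3 largest falls past the threshold, genes whose probes disagreed in call, probes detected in 1 group only, up to 6 called differences between the comparisons in each direction, and the 6 brightest. From each other list, the 4 genes with the smallest p in either comparison were to be named, and Abhd5 served as the check. Hist1h4c, Hist1h3f, Hist1h2be, Hist1h3i, Hist1h1a, Hist1h1t, Hist1h2ba and Hist2h3c1 were named after their values were seen, to complete a count or a class. Current symbols, promoters and start sites came from RefSeq (GRCm38.p6), and all 55 member probes matched a current symbol. Another 3 probes described as histone cluster genes carry other gene names and were not used, and 2 member probes have no coordinates in the files.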

Additional observations from a re-analysis of the deposited data

Results flagged for a closer look

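For 31 cluster histone probes the change in CT-26 cells (knockdown-primed minus control-primed) and the change in RAW264.7 cells (knockdown minus control) differed in limma at an adjusted p under 0.05, where 27.4% of all probes did. The values below are the CT-26 change minus the RAW264.7 change on the log2 scale, and a positive value means a higher change in CT-26 cells.

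The largest differences were those of the Hist4h4 probe past the gene (3.35), whose RAW264.7 change alone was not tested because it was well above background on 2 of 3 arrays of both RAW264.7 groups, and of Hist1h2ac (2.24) and Hist3h2a (2.14). The stem-loop probes gave 2.09 for Hist1h2ae, 2.05 for Hist1h3g, 1.70 for Hist1h2ab, 1.64 for Hist1h3a and 1.24 for Hist1h3i. The H2A probes with a shared coding run gave 1.75 for Hist1h2ah, 1.42 for Hist1h2af, 1.41 for Hist2h2aa2, 1.40 for Hist1h2an, 1.38 for Hist1h2ag, 1.34 for Hist1h2ak and 1.29 for Hist2h2ac.

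Other H3 genes gave 1.46 for Hist1h3f, 1.14 for Hist2h3c1, 1.02 for Hist1h3d and 0.90 for Hist1h3c. The H1 genes gave 1.45 for Hist1h1e, 1.06 for Hist1h1b and 0.86 for Hist1h1t. Among H4 probes the differences were 1.31 for Hist1h4d, 1.02 for 1 of the 2 Hist1h4k probes, 0.87 for 1 of the 2 Hist2h4 probes and 0.87 for 1 of the 3 Hist1h4i probes. The H2B genes gave 1.35 for Hist1h2bp and 0.79 for Hist1h2bb. Negative differences came from the dim probes for Hist1h2bq (-2.71), Hist2h2ab (-1.80) and Hist1h4h (-1.30). With the slide as a block, where the RAW264.7 change rests on control array 3 alone, 7 of the 31 passed and all 31 kept their direction. The positive differences that did not pass ran from 0.44 for Hist1h1t to 2.74 for Hist4h4 with the block, and the negative ones were -2.54 for Hist1h2bq and -1.42 for Hist2h2ab. The blocked value of Hist1h2af was 1.37 and that of Hist1h1b 1.11, close to their values without the block.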

How the results depend on the processing

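The 12 called probes in RAW264.7 cells and the 15 in CT-26 cells kept their direction wherever they were tested, and of the named differences between the changes that of Hist2h2ab reversed with normexp (0.15, adjusted p = 0.672). In RAW264.7 cells, members called higher and lower numbered 1 and 21 with normexp (6.47% and 21.6% of all probes), 0 and 4 without the filter (2.64% and 3.42%) and 1 and 19 with the stricter filter (7.24% and 21.9%). They numbered 0 and 3 with the slide as a block (3.21% and 0.957%) and on 1 slide, both of which rest on control array 3. Median centring left 5 lower (4.88%), and all 4 groups in 1 fit gave 21 (24.0%). The gap between the member median and all probes turned to 0.0085 without the filter. In CT-26 cells, members called higher and lower numbered 0 and 0 without the filter in limma (31 and 2 at an unadjusted p under 0.05, and 0.0377% and 0.00898% of all probes called) and 7 and 0 with all 4 groups in 1 fit (1.90% and 2.25%). Those called lower were 1 with median centring (3.42%) and 0 with normexp, quantile normalisation or the stricter filter (2.80%, 3.02% and 3.85%). For the difference between the changes, 0 were called lower with normexp or the stricter filter (5.76% and 7.43%), and 6 higher and 1 lower with the slide as a block (3.78% and 3.82%). The causes were not tested.

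Leaving out each array gave 4 to 10 lower and 0 to 2 higher in RAW264.7 cells, 0 to 22 higher and 0 to 2 lower in CT-26 cells, and 17 to 30 higher and 1 to 3 lower for the difference. For the other lists in RAW264.7 cells it gave 0 to 5 S phase genes, 0 to 12 of mRNA processing, 0 to 2 chaperones and 1 to 3 of withdrawal, and in CT-26 cells 0 to 15, 0 to 1, 0 to 3 and 0 to 3, with 0 to 2 variants. Over the same fits 2.09% to 18.4% of all probes fell and 3.79% to 9.30% rose in RAW264.7 cells. In CT-26 cells 0.0472% to 4.98% fell and 0.0472% to 4.43% rose. In RAW264.7 cells, S phase genes numbered 8 with normexp, 1 with median centring or quantile normalisation and 0 with the slide block. The mRNA processing genes numbered 3 with median centring or quantile normalisation and 0 with the slide block, the chaperones 5, 1, 1 and 0 under normexp, median centring, quantile normalisation and the slide block, and the withdrawal genes 1 with the slide block. Of all probes in RAW264.7 cells, 21.6%, 4.88% and 6.96% fell under normexp, median centring and quantile normalisation, and 6.47%, 9.70% and 8.79% rose. In CT-26 cells, quantile normalisation gave 8 S phase genes, 1 of mRNA processing, 0 chaperones and 0 variants. Normexp and median centring each gave 1 of mRNA processing and 2 chaperones there. Of all probes in CT-26 cells, 2.30%, 4.58% and 4.05% rose under quantile normalisation, normexp and median centring, and 3.02%, 2.80% and 3.42% fell.

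By the scanner file numbers, deviations from group means correlated between same-numbered arrays at -0.008, 0.047 and -0.023 in RAW264.7 cells. In CT-26 cells they correlated at -0.081, -0.228 and -0.005. The CT-26 numbers differ in the value table, and by its numbers the pairs gave 0.066, -0.005 and 0.206. Whether the CT-26 samples were paired cannot be settled from these values. With the replicate block, 7 members were higher and 1 lower in CT-26 cells (0.859% and 3.01% of all probes) and 9 lower in RAW264.7 cells (10.1%). The block gave 1 S phase gene, 5 of mRNA processing and 1 chaperone in RAW264.7 cells, and 6 S phase genes and 0 in the mRNA processing, chaperone and variant lists in CT-26 cells. Not every sample correlated best with its own number. Signal over background limits Hist1h2bq, Hist2h2ab, Hist1h4h and the Hist4h4 probe past the gene.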
